A study of Mus musculus with 12 samples.

Results

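Mouse macrophages in gels of high collagen were compared with macrophages in gels of low collagen, all treated with IL-4. The study grew bone marrow-derived macrophages inside collagen I gels, or on tissue culture plates, and sequenced their RNA with and without IL-4. The 4 libraries compared here were taken by their group names from the 12 of the series, as the only libraries from gels with IL-4. There were 2 libraries at 7 mg/ml collagen and 2 libraries at 2 mg/ml. All cells were differentiated from wild-type C57BL/6J bone marrow in L929-conditioned medium, were placed in floating rat tail collagen gels, and received IL-4 at 20 ng/ml. The labels give 24 h of treatment, while the protocol gives 16 to 28 h for gels. RNA was taken from whole gels, and stranded mRNA libraries were prepared in the same way for all groups.

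Collagen concentration, stiffness and pore size changed together between the gels, so no difference below can be assigned to any of them alone. The labels do not say whether replicates were separate cultures or came from separate animals, so the p-values measure only the spread between these libraries. An exact permutation of 2 against 2 libraries cannot give a p-value below 0.333. In bulk RNA, fewer cells of a type and less RNA per cell cannot be told apart.

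IL-4 signals through STAT6 and turns on a set of genes tied to tissue repair in macrophages. Collagen I is the main fibrous protein that surrounds macrophages in most tissues. Macrophages carry receptors for damage, lipids, chemokines and dying cells, and the genes for these are read below beside those for antioxidant defence, iron and low oxygen.

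Markers of the cell type were read before the comparison. Expression is given throughout as TPM, transcript abundance scaled to a fixed total per library, with the 2 high-collagen libraries first and the 2 low-collagen libraries second. The macrophage receptor gene Csf1r was at 1445 and 1315 TPM against 1114 and 1090.5 TPM. The highest macrophage marker was the lysozyme gene Lyz2, with a mean of 29207 TPM. Of 10 fibroblast markers, 7 were below 1 TPM in all 4 libraries, and the highest was Postn, a matrix protein gene, with 5.16 TPM. Of 10 neutrophil markers, 5 were below 1 TPM, and the highest was S100a9, a calcium-binding protein gene, with 9.57 TPM. Among lymphocyte markers 9 of 10, and among dendritic cell markers 8 of 8, were below 1 TPM. High values were seen in other marker lists for Pf4, a platelet chemokine also made by macrophages, with 1086 TPM, and for Atp6v0d2, a proton pump gene of osteoclasts that IL-4 also raised on plates, with 391 TPM. Other members of their lists were far lower, as 6 of 8 erythroid and megakaryocyte markers were below 1 TPM in all 4 libraries. Of 8 osteoclast markers only 2 were, so several osteoclast markers were expressed. Macrophage markers were by far the highest of the lists. They also differed between the groups in the fits below, with 5 of 10 called higher and 1 lower. Among all genes 14.1% were called higher and 6.99% lower. The macrophage markers summed to 38156 and 36141 TPM in high collagen against 31182 and 32372 TPM in low collagen.

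In limma fits, 2500 of 11852 genes tested were called at a Benjamini-Hochberg adjusted p below 0.2, or 21.1%. Of these, 1672 genes (14.1%) were higher in high collagen and 828 (6.99%) were lower. That split depended on scaling. After median-ratio rescaling it was 1218 higher and 1350 lower, after quantile normalization 1322 and 1153, and after correction for GC content and length 1228 and 1284. All genes together had a median of 0.06 in log2 on the deposited TPM, and the median shifted by -0.07, -0.07 and -0.06 under those scalings. Calls in the same direction under all of them were kept by 1033 higher and 782 lower genes. Changes were mostly small, as only 80 genes (0.675%) were higher by at least 2-fold and 56 (0.472%) lower by at least 2-fold.

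Counts also leaned on single libraries. The total of called genes was 1268 and 715 without high-collagen library 1 or 2, and 1434 and 714 without low-collagen library 1 or 2. Each of those fits had fewer samples, which by itself lowers the count. For the gene lists below, ranges with a library left out are over these 4 fits, and list counts stand beside the 14.1% higher and 6.99% lower of all genes.

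Well-measured genes were taken as protein-coding genes with a mean of at least 10 TPM over the 4 libraries that share at most 20% of their 31-base words with other genes. There were 6368 of them, of which 1082 were called higher and 544 lower, with a median log2 fold change of 0.06. By at least 1.5-fold, 125 were higher and 72 lower, and by at least 2-fold 11 were higher and 22 lower. The genes that rose most were therefore a small group.

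Thbs1, which encodes the matricellular protein thrombospondin 1, had the largest rise among well-measured genes. Its TPM were 182 and 147 in high collagen against 53.8 and 53.1 in low collagen. Both high-collagen libraries were above both low-collagen libraries. Such separation alone does not mark out a gene, as the groups did not overlap for 6575 of 11852 genes tested (55.5%). The largest rises and falls were also picked from called genes without overlap, so for them separation was set by the choice. It rose by 1.59 in log2 (standard error 0.13, limma adjusted p 0.00347), or 3.02-fold. The gene lies at chr2:118111876-118127133 on GRCm38.

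Pla2g7 followed it and encodes the secreted phospholipase that breaks down platelet-activating factor and oxidized phospholipids. Expression was 42.0 and 43.5 TPM in high collagen and 13.6 and 14.2 TPM in low collagen. The groups were far apart and the replicates close together. The rise was 1.55 in log2 (standard error 0.08, limma adjusted p 0.0007), the lowest adjusted p among the genes named here. The locus is chr17:43568098-43612201.

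Stap1, an adaptor that binds the receptor Csf1r, was at 14.8 and 19.4 TPM against 7.43 and 5.01 TPM. Lpin2, a phosphatidate phosphatase of lipid synthesis, averaged 25.7 TPM against 11.1 TPM. Slco2b1, an organic anion carrier, was at 17.7 and 15.7 TPM against 7.43 and 6.83 TPM. Neither group of libraries reached into the other for any of these genes. Their log2 fold changes were 1.34, 1.14 and 1.12, with limma adjusted p of 0.0188, 0.00986 and 0.00766.

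**Figure D1:**
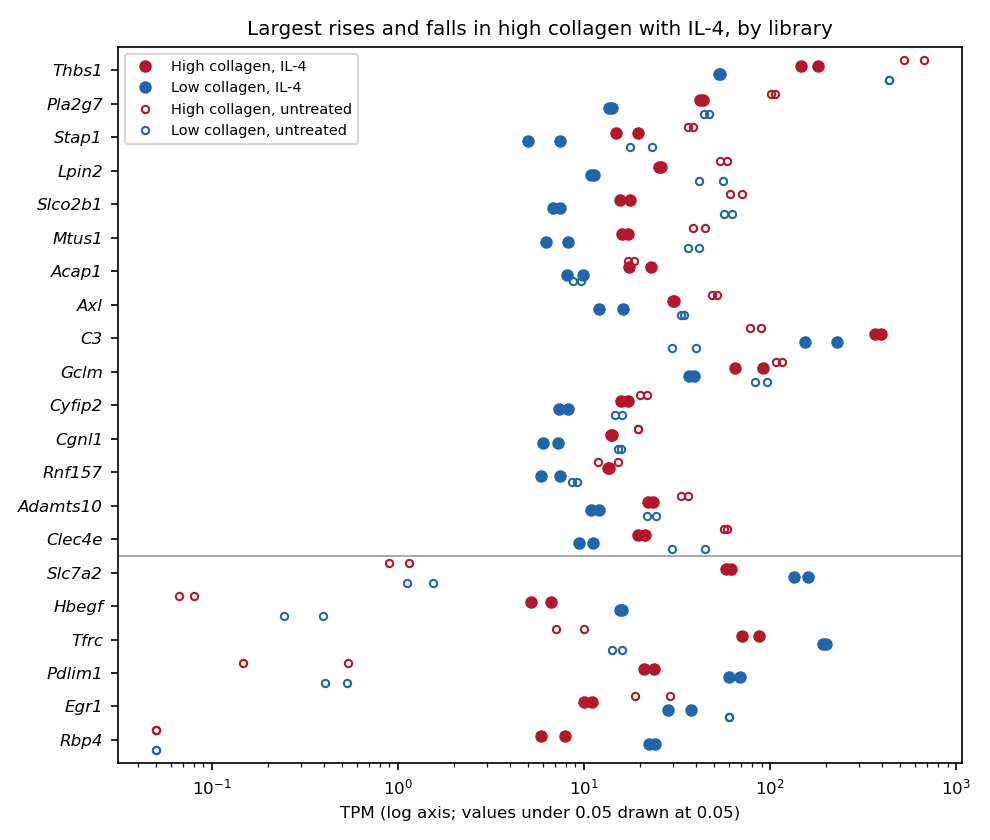
TPM in each gel library, with and without IL-4, of genes among the largest rises (upper) and falls (lower) in high collagen with IL-4. All are well measured and not named by the study.

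Other large rises were of mixed function. Mtus1, a microtubule-binding protein, was higher by 1.10 in log2 (limma adjusted p 0.0121), and Acap1, which regulates Arf6 in endosome recycling, by 1.08 (0.0161). Cyfip2, a subunit of the complex that starts branched actin, was higher by 1.00 (0.00968), and Cgnl1, a junction protein, by 0.99 (0.00968). Rnf157, a ubiquitin ligase, was higher by 0.94 (0.0230), and Adamts10, a secreted protease of the microfibril matrix, by 0.92 (0.00968). All of these genes were called with any 1 of the 4 libraries left out. Itga6, an integrin chain, rose by 0.97 in log2, more than Rnf157 and Adamts10, but was not among the genes picked for naming.

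Tissue culture plates gave a comparison with no library in common with the gels. On the plates, IL-4 against no IL-4 called 1745 genes higher (14.7%) and 2853 lower (24.0%) of 11865 tested. The plate groups were compared in a fit with all 12 libraries, which takes its variance from the gels too. Genes named by the study were kept in these counts. Of the 125 well-measured genes higher by at least 1.5-fold in high collagen, 80 (64.0%) were lower with IL-4 on plates and 6 (4.80%) were higher, with a median log2 fold change of -0.49. Among all 6368 well-measured genes 1649 (25.9%) were lower and 1158 (18.2%) higher on plates, with a median of -0.04. Genes that rose in high collagen were thus lowered by IL-4 on plates more often than well-measured genes in general.

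Genes that fell in high collagen showed the reverse on plates. Of the 72 well-measured genes lower by at least 1.5-fold, 45 (62.5%) were raised by IL-4 on plates and 14 (19.4%) were lowered, with a median log2 fold change of 0.74. After median-ratio rescaling of both comparisons the shares were 45 of 74 (60.8%) for the higher genes and 72 of 109 (66.1%) for the lower genes, beside 21.3% and 24.0% of all well-measured genes. With quantile normalization they were 52 of 78 (66.7%) and 60 of 88 (68.2%), beside 22.5% and 22.3%. With only the 4 plate libraries in the fit they were 84 of 125 (67.2%) and 44 of 72 (61.1%), beside 27.7% and 19.6%. Scaling therefore changed how many genes passed 1.5-fold but little of the share, and neither share needed the gel libraries in the plate fit.

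Most but not all of the largest rises and falls carried the same pattern. With IL-4 on plates the log2 fold change was -2.05 for Thbs1, -1.10 for Pla2g7, -1.78 for Slco2b1 and -1.26 for Mtus1, against 5.04 for Slc7a2, a cationic amino acid carrier, and 2.75 for Tfrc, the transferrin receptor. Stap1 (-0.35, limma adjusted p 0.206) and Acap1 (-0.29, 0.215) were not called on plates, and Egr1, a transcription factor among the largest falls, was lowered on plates as well (-1.77, 0.000292). Cd36, the scavenger receptor for oxidized lipids, also broke the pattern. It was at 337 and 341 TPM in high collagen against 223 and 211 TPM, with no overlap. It rose by 0.64 in log2 (limma adjusted p 0.0146), while IL-4 on plates raised it by 1.74. The cause of the pattern was not tested.

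**Figure D2:**
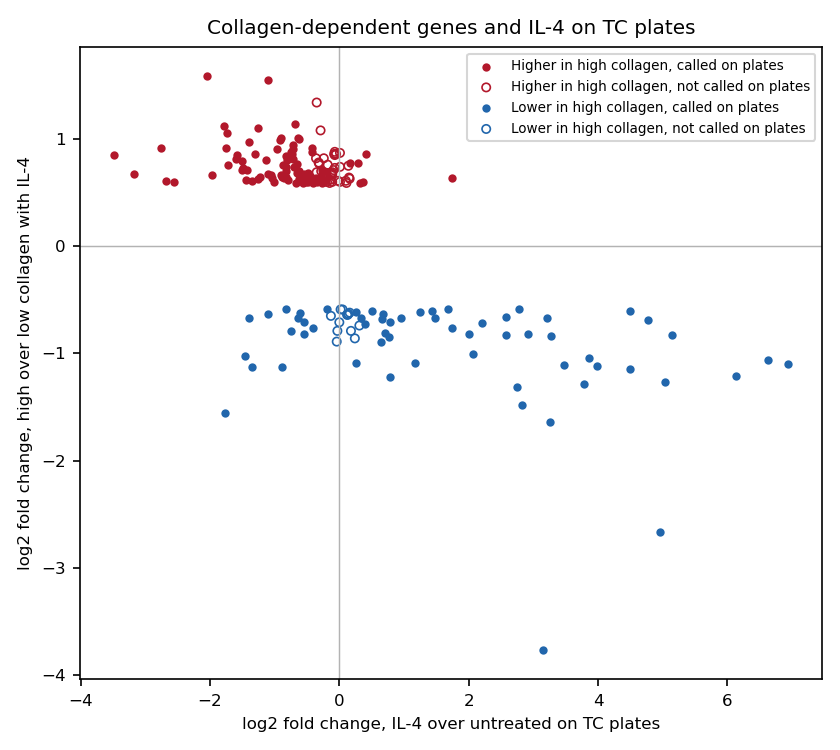
Log2 fold change with IL-4 on tissue culture plates against log2 fold change in high over low collagen with IL-4, for well-measured genes changed by at least 1.5-fold between the gels.

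Antioxidant genes regulated by NRF2 were 14 of 22 higher (63.6%) and 0 lower, with a median log2 fold change of 0.28. With 1 library left out, 7 to 11 were higher and 0 lower. The scalings gave 9 higher and 2 lower, 11 and 2, and 12 and 2, so the side of the list held. In untreated gels 4 were higher and 1 lower, with a median of 0.07.

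Gclm, the regulatory subunit of the enzyme that starts glutathione synthesis, was at 64.9 and 91.5 TPM in high collagen and 39.1 and 36.8 TPM in low collagen. The high-collagen replicates were uneven, yet both exceeded the low-collagen libraries. Its log2 fold change was 1.01 (standard error 0.15, limma adjusted p 0.0185). Prdx1, a peroxidase that clears hydrogen peroxide, was at 1206 and 1184 TPM against 804 and 812 TPM, without overlap. It rose by 0.56 in log2 (standard error 0.06, adjusted p 0.00766). Txnrd1, thioredoxin reductase, rose by 0.59 (standard error 0.11), Cat, catalase, by 0.54 (adjusted p 0.00986), and Abcc1, an exporter of glutathione conjugates, by 0.64 (0.0230). IL-4 on plates lowered Prdx1 by 1.19 and Gclm by 0.64 in log2.

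Other NRF2 genes were not called. Hmox1, heme oxygenase, was at 358 and 355 TPM against 379 and 373 TPM, and Txn1, thioredoxin, at 245 and 245 TPM against 275 and 263 TPM. Gclc, the catalytic partner of Gclm, was at 7.43 and 7.38 TPM against 6.41 and 5.74 TPM (0.25, limma adjusted p 0.294), and Srxn1, which repairs peroxiredoxins, changed by 0.16 (0.333). The rise therefore did not extend to every NRF2 target, nor to every glutathione or peroxide enzyme.

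Iron genes moved in opposite directions. Fth1, the heavy chain of ferritin that stores iron, was at 21701 and 23146 TPM in high collagen against 17165 and 16792 TPM. No low-collagen library reached a high-collagen library. Its log2 fold change was 0.40 (limma adjusted p 0.0230), and the rise of 5445 TPM was the largest of any well-measured gene. Under quantile normalization the Fth1 difference was -0.00. It was 0.32 after median-ratio rescaling (limma adjusted p 0.163) and 0.38 after the GC and length correction (0.0687). The rise of Fth1 therefore depended on scaling. Slc40a1, the iron exporter ferroportin, was at 111 and 119 TPM against 67.9 and 77.2 TPM, again apart. It rose by 0.66 (adjusted p 0.00968), and Slc11a1, which pumps iron and manganese out of the phagosome, by 0.61 (0.00986).

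Tfrc, which takes up transferrin-bound iron, was at 87.4 and 70.6 TPM in high collagen and 199 and 192 TPM in low collagen. Both high-collagen libraries were far below. Its log2 fold change was -1.31 (standard error 0.16, limma adjusted p 0.0101). Slc11a2, another iron importer, was at 32.5 and 30.9 TPM against 25.9 and 24.5 TPM and was higher by 0.32 (0.0697). Uptake genes were therefore not lower in general. The list of metal transport genes as a whole had 5 of 17 higher and 1 lower (3 to 5 and 1 with a library left out), with a median of 0.04 whose sign changed under scaling. Ftl1, the ferritin light chain, was at 26277 and 27624 TPM against 27465 and 29853 TPM and was not called. It shares 64.1% of its 31-base words with other genes and was not well measured, so the ferritin chains are hard to compare.

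Hypoxia response genes were 10 of 21 higher (47.6%) and 0 lower, with a median log2 fold change of 0.18. Leaving out 1 library gave 3 to 8 higher and 0 lower, and the scalings gave 9, 10 and 10 higher with 0 lower. In untreated gels 0 were higher and 0 lower, with a median of -0.06.

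Ero1l, an oxidase of the endoplasmic reticulum, was at 251 and 248 TPM in high collagen and 166 and 165 TPM in low collagen. Replicates nearly coincided within each group. It rose by 0.59 in log2 (limma adjusted p 0.0235). Vegfa, the growth factor for blood vessels, was at 289 and 340.3 TPM against 222 and 199 TPM, with the groups apart. It rose by 0.58 (limma adjusted p 0.0260). In untreated gels Vegfa was not called (0.02), and its interaction was not called either (0.56, limma adjusted p 0.349). Other hypoxia genes such as Bnip3l, a mitophagy receptor with 245 and 236 TPM against 246 and 235 TPM, and Ndrg1, a stress gene with 119 and 127 TPM against 127 and 122 TPM, were not called. Only some of the hypoxia genes rose, and oxygen in the gels was not analysed here.

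Promoters of 300 bases were read around the start sites of 8910 of the genes tested. The letters ACGTG, bound by hypoxia-inducible factors, were present in 26.3% of them, in 12 of 18 (66.7%) of the tested hypoxia genes and in 5 of 9 (55.6%) of those called higher. They were no more frequent in the hypoxia genes that rose than in the whole list. The promoters of 3 genes called higher are shown to place their matches, which are in capitals, on GRCm38.p6 and 5′ to 3′. P4ha2, a collagen prolyl hydroxylase, has matches at -78 and 10 from the start site (chr11:54100674-54100973, plus strand). Ddit4, an inhibitor of mTOR, has a match at -187 (chr10:59951721-59952020, minus strand), and Egln3, a prolyl hydroxylase that senses oxygen, at -229 (chr12:54203825-54204124, minus strand).
P4ha2: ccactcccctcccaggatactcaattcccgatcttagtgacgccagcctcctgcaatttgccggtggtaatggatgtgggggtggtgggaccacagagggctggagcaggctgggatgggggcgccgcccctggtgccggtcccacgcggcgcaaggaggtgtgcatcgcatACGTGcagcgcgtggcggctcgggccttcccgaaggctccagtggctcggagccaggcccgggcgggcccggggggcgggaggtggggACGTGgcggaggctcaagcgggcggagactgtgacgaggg
Ddit4: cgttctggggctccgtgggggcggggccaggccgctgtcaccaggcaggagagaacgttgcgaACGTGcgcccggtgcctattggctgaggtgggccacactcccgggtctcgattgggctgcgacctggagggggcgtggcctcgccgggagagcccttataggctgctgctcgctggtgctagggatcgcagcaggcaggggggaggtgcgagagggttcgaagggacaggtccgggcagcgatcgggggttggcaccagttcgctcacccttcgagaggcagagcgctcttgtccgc
Egln3: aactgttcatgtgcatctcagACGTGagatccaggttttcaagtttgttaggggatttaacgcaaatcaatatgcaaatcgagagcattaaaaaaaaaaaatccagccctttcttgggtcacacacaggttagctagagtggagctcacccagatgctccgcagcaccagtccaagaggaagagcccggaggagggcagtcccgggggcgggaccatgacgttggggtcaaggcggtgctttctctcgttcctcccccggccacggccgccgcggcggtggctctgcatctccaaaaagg

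Antioxidant promoters were searched for TGACNNNGC, the core that NRF2 binds with its partners, a choice made after the data were seen. It was present in 15.1% of all promoters, in 6 of 17 (35.3%) of the tested NRF2 genes and in 4 of 11 (36.4%) of those called higher. The share was similar in the list and in its members called higher, which make up most of it. No difference between these shares was tested. Among the 95 promoters of genes higher by at least 1.5-fold, ACGTG was present in 23.2% and TGANTCA, the AP-1 site, in 7.4%, beside 35.7% and 12.5% of the 56 promoters of lower genes and 4.9% of all for TGANTCA. The promoters of Prdx1 and Gclm, which are among those with a match, are shown with the matches, each read on the opposite strand, in capitals. Not all rising genes named above hold a match, as the promoters of Txnrd1 and Cat have none. Prdx1 has its match at -133, where it overlaps TGANTCA (chr4:116685349-116685648, plus strand), and Gclm at -134 (chr3:122245307-122245606, plus strand).
Prdx1: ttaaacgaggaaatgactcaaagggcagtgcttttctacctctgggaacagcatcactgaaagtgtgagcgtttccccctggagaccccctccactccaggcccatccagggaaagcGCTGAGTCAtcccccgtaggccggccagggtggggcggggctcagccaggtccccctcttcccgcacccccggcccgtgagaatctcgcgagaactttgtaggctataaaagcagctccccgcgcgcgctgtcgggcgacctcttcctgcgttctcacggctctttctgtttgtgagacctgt
Gclm: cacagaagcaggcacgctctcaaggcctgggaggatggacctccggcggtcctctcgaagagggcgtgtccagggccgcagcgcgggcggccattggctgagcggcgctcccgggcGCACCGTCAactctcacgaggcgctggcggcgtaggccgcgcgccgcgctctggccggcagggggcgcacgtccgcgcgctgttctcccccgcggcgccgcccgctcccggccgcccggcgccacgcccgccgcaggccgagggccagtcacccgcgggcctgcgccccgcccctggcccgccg

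Receptors for chemokines and other chemoattractants, such as complement and formyl peptides, were 7 of 11 higher (63.6%) and 0 lower, with a median log2 fold change of 0.43, and 5 to 6 higher and 0 lower with a library left out. The scalings gave 7, 7 and 5 higher. In untreated gels 4 were higher and 0 lower, with a median of 0.37, so the list was higher there too. Of the called genes, C5ar1, the receptor of complement C5a, is not a chemokine receptor (0.44, limma adjusted p 0.0635). Cxcr4, the receptor for the chemokine CXCL12, was at 125 and 112 TPM in high collagen against 76.2 and 71.1 TPM. The groups did not overlap. It rose by 0.68 (limma adjusted p 0.00986). Ccr2, the receptor of monocyte recruitment, rose by 0.56 (0.0271) from 7.12 and 7.22 TPM to 10.7 and 11.4 TPM, and Ccrl2, a decoy receptor for chemerin, by 0.75 (0.0284).

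Chemokines themselves were more often lower, with 2 of 16 higher and 5 lower, or 31.2% (0 to 2 and 2 to 5 with a library left out), and a median of -0.45. Ccl2, the ligand of Ccr2, was at 227 and 185 TPM against 438 and 434 TPM. High-collagen libraries were both below low-collagen libraries. The log2 fold change was -1.09 (limma adjusted p 0.0632), but the adjusted p was 0.264 without high-collagen library 2 and 0.230 without low-collagen library 2. Ccl7, another Ccr2 ligand, was lower by 1.01 (adjusted p 0.0684), and that call was kept only without high-collagen library 1. Untreated gels had 0 chemokines higher and 5 lower, with a median of -0.14. Ligands and receptor thus moved in opposite directions, and the ligand calls were fragile.

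Single receptors for microbial sugars and lipids were higher. Clec4n, the lectin Dectin-2, was at 77.4 and 73.6 TPM in high collagen and averaged 41.6 TPM in low collagen. Clec4d, its partner lectin, was at 229.6 and 221 TPM against 148 and 157 TPM. Clec4e, the lectin Mincle, was at 19.4 and 21.2 TPM against 11.2 and 9.36 TPM. None of these lectins had overlapping groups. Their log2 fold changes were 0.85, 0.56 and 0.92, with limma adjusted p of 0.00926, 0.00968 and 0.0330. Cd14, a co-receptor for bacterial lipids from the list of toll-like receptors, rose by 0.67 (0.0121).

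Toll-like receptor genes were 8 of 18 higher (44.4%) and 1 lower, with a median of 0.26, and 1 to 5 higher and 0 to 1 lower with a library left out. Untreated gels had 2 higher and 1 lower. The list also holds partner proteins and adaptors of these receptors. Of its 8 genes higher with IL-4, only Tlr2, Tlr7, Tlr8 and Tlr13 encode toll-like receptors, beside Cd14, Cd180, Ly86 and Ticam1. Tlr2, which senses bacterial lipoproteins, was higher by 0.61 (limma adjusted p 0.0520), but its adjusted p was 0.219 without low-collagen library 2. Myd88, the adaptor of these receptors, was at 27.4 and 31.5 TPM against 38.2 and 36.9 TPM. It was the 1 member called lower (-0.34, limma adjusted p 0.0690). Of all 27 phagocytic and scavenger receptors tested, 9 were higher and 8 lower (4 to 6 and 3 to 5), with a median of -0.01. The lectins therefore did not stand for phagocytic receptors in general.

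Axl, a receptor for dying cells, was at 30.3 and 29.9 TPM in high collagen and averaged 14.1 TPM in low collagen. The libraries of the groups were well apart. The rise was 1.06 in log2 (standard error 0.13, limma adjusted p 0.0101), and its bridging ligand Gas6 rose by 0.33 (adjusted p 0.0314), from 343 and 361 TPM to 456 and 428 TPM. Mertk, the related receptor, was at 51.3 and 53.2 TPM against 60.1 and 48.6 TPM, with overlap. Stab1, a scavenger receptor that also binds dying cells, was at 193 and 186 TPM against 294 and 312 TPM, and was lower by 0.67. C3, the central complement protein, was higher by 1.01 (adjusted p 0.0324), and Cfp, properdin, which stabilizes the complement convertase, was lower by 0.71 (0.00986).

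Fatty acid synthesis genes were 3 of 15 higher (20.0%) and 1 lower (6.67%), close to the shares of all genes (2 and 0 to 1 with a library left out). Fads1, a desaturase of polyunsaturated fatty acids, was at 44.7 and 46.8 TPM against 31.7 and 31.1 TPM, and Elovl5, an elongase, at 42.6 and 46.2 TPM against 31.3 and 30.5 TPM. High-collagen libraries were above for both genes. They rose by 0.53 and 0.51 in log2, with limma adjusted p of 0.0143 and 0.0208. Elovl1, another elongase, was lower by 0.39 (0.0491), with an adjusted p of 0.213 without high-collagen library 2, and the desaturase Scd2 was not called (-0.06). Elongases and desaturases therefore did not move together. Pnpla2, the lipase that opens lipid droplets, rose by 0.47 (0.0255). Abcg1, a cholesterol exporter, was lower by 0.58 (0.00986). Apoe, the lipid carrier, was at 9886 and 9024 TPM against 7944 and 7992 TPM. Its rise of 0.25 had an adjusted p of 0.0769, which was 0.304, 0.221 and 0.266 without high-collagen library 1, low-collagen library 1 or low-collagen library 2.

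TGF-beta genes were 5 of 15 higher (33.3%) and 1 lower (6.67%), with a median of 0.32, and 1 to 5 higher and 1 lower with a library left out. Untreated gels had 4 higher and 0 lower. Tgfbr1, the type I receptor, was at 33.9 and 40.1 TPM against 23.9 and 23.8 TPM, with the groups apart. The rise was 0.61 (limma adjusted p 0.0186), and Tgfbi, an adhesion protein induced by TGF-beta, rose by 0.43 (0.0237). The matrix list, with 6 of 21 higher and 4 lower (2 to 4 and 2 to 3), was mixed.

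Actin genes were called in both directions. Actin and SRF targets were 5 of 26 higher and 7 lower (0 to 2 and 4 to 5 with a library left out), and under the scalings 2, 2 and 3 were higher and 9, 8 and 9 lower. There were, among genes of actin nucleation and turnover, 4 of 40 higher and 8 lower (1 to 5 and 3 to 6), and 3, 5 and 4 higher and 9, 9 and 9 lower under the scalings. The lower side was thus the larger after rescaling. Flna, the actin crosslinker filamin A, was at 74.5 and 88.3 TPM in high collagen against 142 and 135 TPM. Pfn1, profilin, was at 548 and 507 TPM against 772 and 813 TPM. The high-collagen libraries were the lower ones for each. Flna was lower by 0.76 and Pfn1 by 0.59 in log2 (limma adjusted p 0.0158 and 0.0170), while Fmnl3, a formin that extends actin filaments, was higher by 0.74 (0.0221). Tubulins and microtubule regulators had 3 of 15 higher and 7 lower (46.7%), and 0 to 2 higher and 7 lower with a library left out. Untreated gels also had 7 lower. Of the 7 lower with IL-4 only Tubb6, a beta tubulin, was well measured, as the others share much sequence with related genes. Lgals1, galectin 1, was lower by 0.51 (0.00986).

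IL-4-induced genes not named by the study were 3 of 25 higher and 13 lower (52.0%), with a median of -0.56, and 0 higher and 7 to 8 lower with a library left out. Slc7a2 was at 61.9 and 58.3 TPM in high collagen against 159 and 134 TPM. Outside the list but also raised by IL-4 on plates, Rbp4, which carries retinol, was at 7.86 and 5.88 TPM against 22.4 and 24.2 TPM. Pdlim1, an actin-linked adaptor, averaged 22.5 TPM against 64.6 TPM. All high-collagen values were below all low-collagen values. In the same order the log2 fold changes were -1.27, -1.64 and -1.48 (limma adjusted p 0.00968, 0.00986 and 0.00986). Hbegf, a ligand of the EGF receptor, was lower by 1.29 (0.0170), and Socs1, the feedback inhibitor of STAT6, by 0.69 (0.0360), though the adjusted p of Socs1 was 0.213 without high-collagen library 2.

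Some IL-4-induced genes did not fall. Clec10a, a lectin for galactose, was at 1011 and 1045 TPM against 878 and 844 TPM, and Cish, a feedback inhibitor of cytokine receptors, at 70.8 and 69.8 TPM against 74.4 and 68.9 TPM. In untreated gels the list had 3 higher and 4 lower, with a median of 0.02. A difference of the list between gels with and without IL-4 was not tested.

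Immediate early genes were 2 of 27 higher and 9 lower (33.3%), with a median of -0.26, and 0 higher and 4 to 7 lower with a library left out. Untreated gels had 0 higher and 10 lower. Egr1, a transcription factor induced by growth signals, averaged 10.5 TPM in high collagen, against 28.4 and 37.8 TPM in low collagen. Egr2, its relative, was at 36.0 and 38.9 TPM against 74.3 and 95.6 TPM. The low-collagen libraries were the higher ones for each gene. Egr1 was lower by 1.56 and Egr2 by 1.15 in log2 (limma adjusted p 0.0121 and 0.0162), and Myc, a driver of growth, was lower by 0.63 (0.0151). Untreated gels showed Egr1 at -1.33 (0.0497) and Egr2 at -1.75 (0.0102), so both were also lower there.

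Nuclear genes of oxidative phosphorylation were 1 of 75 higher and 22 lower (29.3%), with a median of -0.13. With a library left out 0 were higher and 4 to 14 lower, and the scalings gave 34, 21 and 31 lower. Cox5b, a subunit of cytochrome c oxidase, was at 289 and 269 TPM against 383 and 407 TPM, with no overlap. It was lower by 0.50 in log2 (limma adjusted p 0.00986). The falls were small but nearly all on the same side. Untreated gels had 0 higher and 4 lower.

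Single genes of protein folding and antigen processing were lower. Pdia4, a folding enzyme of the endoplasmic reticulum, was at 180.3 and 172 TPM in high collagen against 334 and 289.5 TPM. Psmb10, a subunit of the immunoproteasome, was at 115 and 111 TPM against 242 and 244 TPM. The groups were far apart for each. The log2 fold changes were -0.82 and -1.09 (limma adjusted p 0.00766 and 0.00264). Erap1, a peptidase of antigen processing, was higher by 0.54 (0.0646), though it was called in 0 of the 4 leave-out fits. The lists of these genes depended on scaling. Unfolded protein response genes were 1 of 23 higher and 4 lower, or 17.4% (0 to 2 and 2 to 3 with a library left out), and 9, 5 and 9 were lower under the scalings. There were 2 of 19 genes of MHC class I presentation higher and 3 lower (0 to 1 and 2 to 5). Proteasome genes, listed apart, were 1 of 31 higher and 4 lower (0 and 1 to 3), and 7, 5 and 6 were lower under the scalings.

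Interferon response genes had the median -0.38, with 1 of 50 higher and 6 lower (0 to 2 and 0 to 12 with a library left out). Low-collagen library 1 stood out, as Gbp2, a GTPase induced by interferon, was at 61.3 TPM there and 29.9 TPM in the other low-collagen library. High-collagen libraries were at 20.3 and 17.9 TPM. Without low-collagen library 1 the median was 0.01, and without low-collagen library 2 it was -0.79, with 12 lower. No more than 1 was lower in the other leave-out fits. The interferon difference therefore rested on low-collagen library 1.

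**Figure D3:**
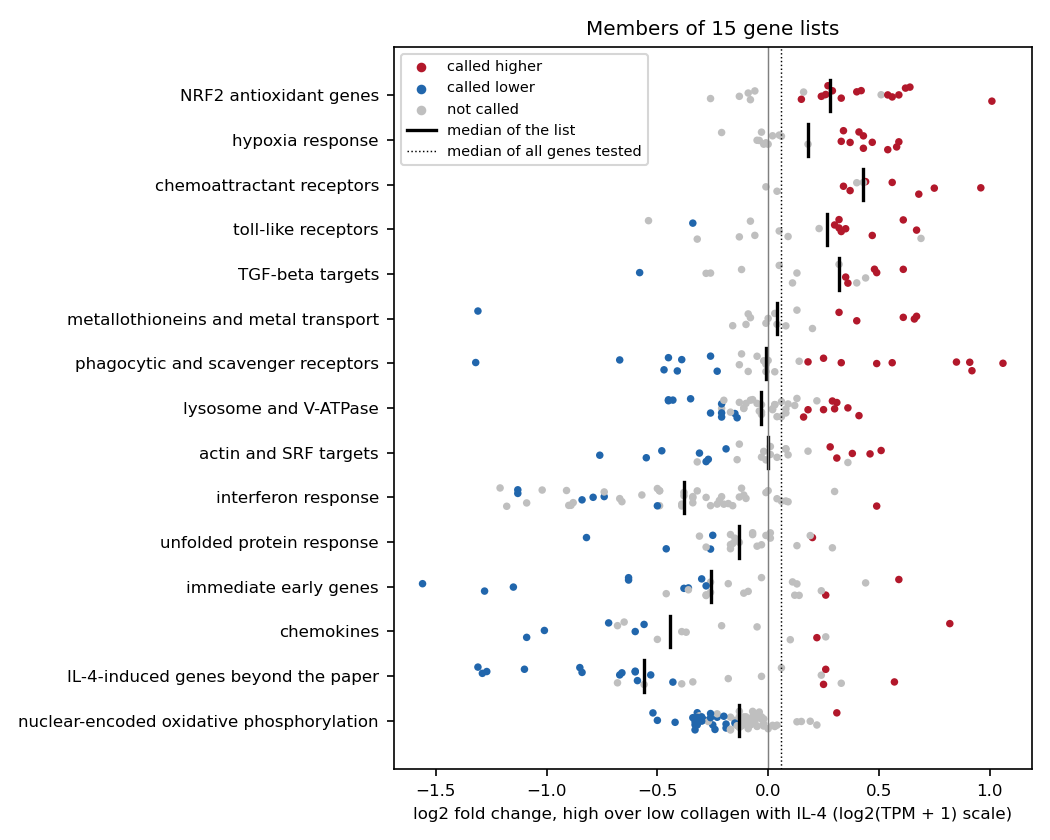
Log2 fold change in high over low collagen with IL-4 of the members of 15 gene lists.

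Other lists were divided, small or moved by scaling. Lysosome genes were 8 of 45 higher and 10 lower (2 to 4 and 4 to 6), glycolysis genes 5 of 21 higher and 5 lower (0 to 2 and 2 to 3), and sterol genes 2 of 24 higher and 4 lower (0 to 1 and 0 to 1). Under the scalings sterol genes were 1, 0 and 1 higher and 7, 8 and 6 lower. Of 14 targets of YAP and TEAD listed, only 4 were expressed enough to test, and 1 was higher (1 in each leave-out fit). Cell cycle genes were 2 of 28 higher and 0 lower (0 to 3 and 0), but 1, 1 and 2 higher and 4, 2 and 3 lower under the scalings.

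**Figure D4:**
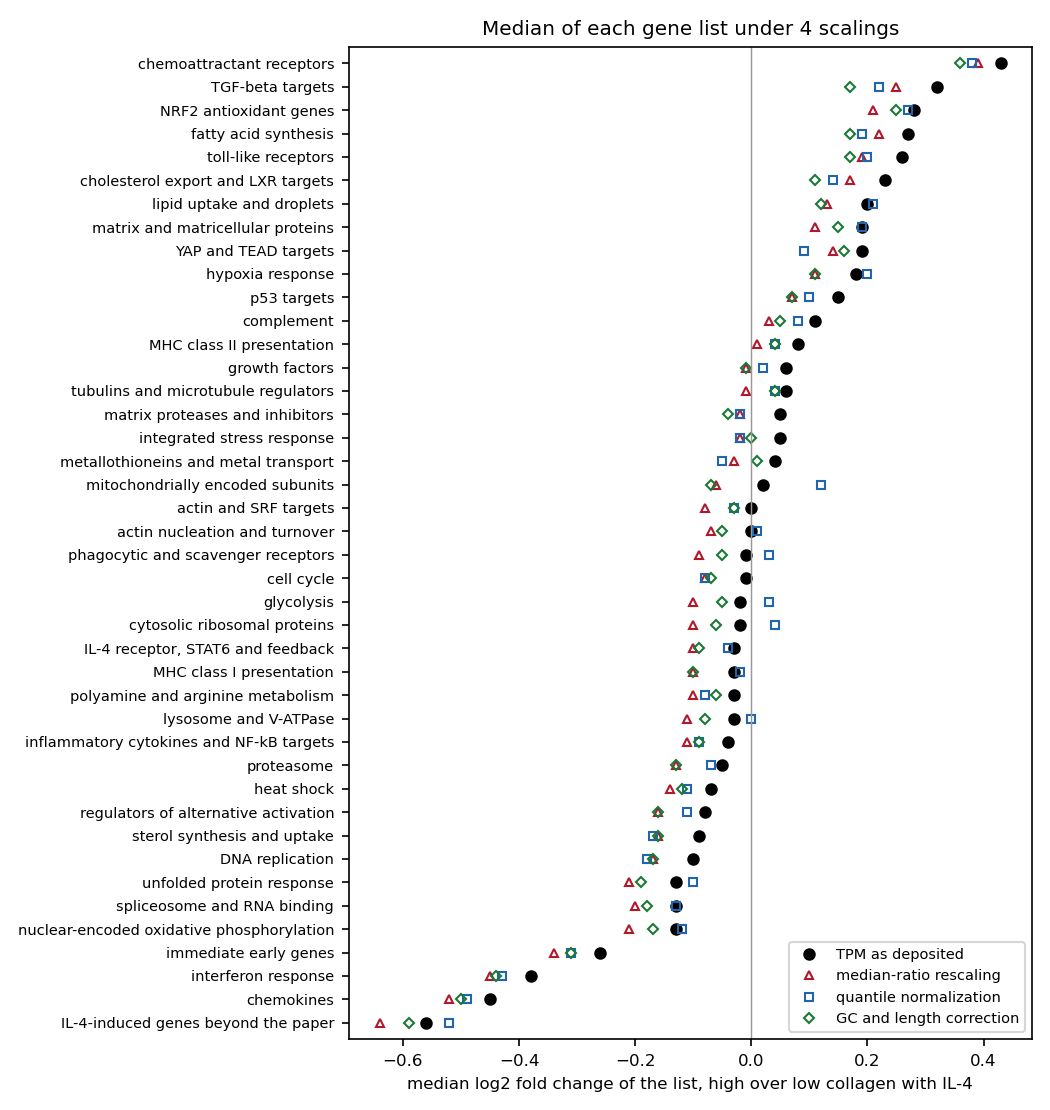
Median log2 fold change of the gene lists in high over low collagen with IL-4, on the deposited TPM and under 3 other scalings.

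Untreated gels, which share no library with the comparison above but share its fit and variance, gave fewer calls. The same limma fit called 951 genes (8.02%) between high and low collagen without IL-4, with 383 higher (3.23%) and 568 lower (4.79%). This split also turned on scaling, with 455 higher and 427 lower after median-ratio rescaling, 597 and 569 after quantile normalization, and 535 and 579 after the GC and length correction. Higher in both were 244 genes, which is 14.6% of those higher with IL-4 and 63.7% of those higher without. Lower in both were 243 genes (29.3% and 42.8%), and 23 were called in opposite directions. Most rises with IL-4 were thus not called without it, although a missing call does not show that a gene was unchanged.

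The difference itself was tested by the interaction of collagen and IL-4, which called 43 genes (0.363%), 23 of them higher (0.194%) and 20 lower (0.169%). Those directions became 14 and 25, 22 and 25, and 12 and 22 under the scalings in the same order. Pla2g7 rose in untreated gels too, by 1.16 (limma adjusted p 0.00205), and C3 by 1.25 (0.0497). Thbs1 was at 668 and 528 TPM against 438 and 435 TPM there, a rise of 0.44 (0.155). Its interaction was 1.15, with an adjusted p of 0.126. These rises were therefore partly shared with untreated gels, and for Thbs1 larger with IL-4.

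Slc40a1 was called in opposite directions. Without IL-4 it was at 298 and 299 TPM in high collagen against 381 and 373 TPM, the reverse of the order seen in treated gels. It was lower by 0.34 there (limma adjusted p 0.0978), and the interaction was 0.99 (0.0326). S1pr1, a receptor of a blood lipid that guides cell exit from tissue, was at 38.8 and 38.3 TPM against 21.6 and 19.9 TPM with IL-4. In untreated gels S1pr1 was at 69.0 and 67.9 TPM against 70.0 and 76.3 TPM. It was called higher only with IL-4, with an interaction of 0.96 (0.0546).

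**Figure D5:**
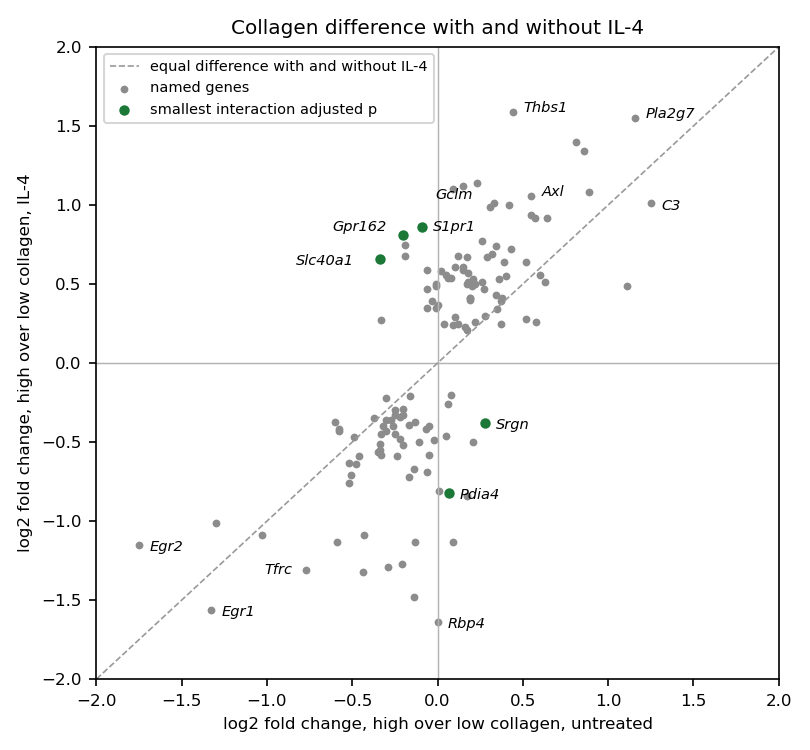
Log2 fold change in high over low collagen with IL-4 against the same without IL-4, for the named genes.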

How the data were processed

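TPM were those the authors deposited, made with kallisto 0.46.1 on Ensembl transcripts of GRCm38. The table had 34456 lines, of which 129 repeated lines were collapsed, leaving 34327 genes. TPM keep no record of sequencing depth, so depth is unknown and counting error was not analysed here. Values were compared as log2(TPM + 1) for genes with a mean of at least 1 TPM. The fit used limma 3.58.1 with a trend, the 8 gel libraries and 1 mean per group, and for the plates a fit of all 12 libraries was used. Adjusted p are Benjamini-Hochberg over all genes tested. Named genes were 15 of the largest rises and 6 of the largest falls among well-measured genes that the study does not name. All of these had to be called and to have groups that did not overlap. Itga6, an integrin chain, rose by 0.97 in log2 and was left out of them. Also named were the 5 largest rises in TPM among called well-measured genes, 5 genes from the interaction, and up to 3 called genes per list. Other list members were added for contrast. There were 43 lists with 1159 genes, written from general knowledge, of which 1 is not reported here. Members and lists were chosen with earlier results of these data known. The comparison with plates was chosen after the data were seen.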

Additional observations from a re-analysis of the deposited data

Results flagged for a closer look

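The effect of collagen differed between gels with and without IL-4 for the genes below. For each, the difference itself was tested as the interaction term in limma, and not by comparing 2 separate calls. The log2 difference, with minus without IL-4, was 1.01 for Gpr162, an orphan receptor (adjusted p 0.0319), and 0.99 for Slc40a1, the iron exporter (0.0326). For S1pr1, the receptor of a blood lipid, it was 0.96 (0.0546). For Srgn, a proteoglycan of secretory granules, it was -0.67 (0.0632), and for Pdia4, a folding enzyme, -0.88 (0.0831). Of well-measured genes that the study does not name, these had the smallest adjusted p, and they were named for it.

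Other genes were named by other rules. The difference was 1.15 for Thbs1, thrombospondin 1 (limma adjusted p 0.126), 0.98 for Slco2b1, an anion carrier (0.140), and 0.51 for Prdx1, a peroxidase (0.126). It was -0.67 for Psmb10, of the immunoproteasome (0.126). Among list members it was 0.63 for Clec4d, a lectin (0.102), 0.48 for Gas6, the ligand of Axl (0.191), and 0.43 for Hmox1, heme oxygenase (0.190). Rbp4, the retinol carrier, was at 0 TPM in all untreated gels, so its difference cannot be told from its fall with IL-4. The cause was not tested.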

How the results depend on the processing

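Alternatives to the fit were a different scaling, no trend, no expression filter, all 12 libraries, only the 4 compared libraries, a replicate block, other thresholds and each library left out. The untreated and plate alternatives were chosen after the data were seen. Causes of changes below were not tested, except that leaving out libraries lowers the number of samples.

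The 2500 genes called with IL-4 became 561 at an adjusted p below 0.05 and 136 with at least 2-fold. Without any 1 library the total ran from 714 to 2662. It was 1268 and 715 without high-collagen library 1 or 2 with IL-4, and 1434 and 714 without low-collagen library 1 or 2. The 1672 higher genes became 367 at 0.05, 80 at 2-fold, and 411 to 1773 with a library left out. The 828 lower genes became 1350 after median-ratio rescaling, 1284 after the GC and length correction, 194 at 0.05, 56 at 2-fold, and 271 to 889 with a library left out.

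Pairing replicates by number as a block gave 1923 called genes, 1293 higher and 630 lower. Pairing has no support in the labels beyond the number, and the replicate 1 deviations of the gel groups with IL-4 had a correlation of -0.03.

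Without IL-4, the 951 called genes became 567 with no filter, 548 with no trend, 586 with the replicate block, 24 with only the 4 compared libraries, 63 at 0.05, 93 at 2-fold, and 102 to 736 with a library left out. The untreated calls dropped to 190 and 102 without untreated high-collagen library 1 or 2, and to 233 without untreated low-collagen library 2. The 43 interaction genes became 66 with no filter, 26 with no trend, 18 with the block, 95 with all 12 libraries, 7 at 0.05, 24 at 2-fold, and 12 to 49 with a library left out. The lowest of these was without high-collagen library 2 with IL-4.

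The 244 genes higher in both became 119 with no filter, 155 with no trend, 155 with the block, 5 with only the 4 libraries, 9 at 0.05 and 14 at 2-fold. The 243 lower in both became 130, 136, 149, 4, 22 and 8 in the same order. The 80 higher genes lowered by IL-4 on plates became 45 after median-ratio rescaling and 52 after quantile normalization, and the 45 lower genes raised on plates became 72 after median-ratio rescaling. With only the 4 plate libraries in the fit they were 84 and 44.

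The naming rule picked 140 genes, which are not the same set as the genes in the text. Of their 2800 values under the alternatives, 2360 were the same, 439 weaker and 1 reversed. The reversed value was Fth1 under quantile normalization, with a log2 fold change of -0.00, because that method fixes the value of each rank and Fth1 is near the top. All 3 scalings kept 124 of the 140 calls. All 4 leave-outs kept 78, and 17 were kept in none.

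Limits were 2 libraries per group, unknown depth, and collagen concentration, stiffness and pore size changing together. Labels do not say whether replicates were separate cultures. Values are RNA and not protein. Calls at an adjusted p below 0.2 include more false calls than stricter ones.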

Other observations

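Further values with IL-4 are given here, high-collagen libraries first. Tnfaip2, a gene of membrane tubes between cells, was at 181 and 163 TPM against 101 and 112 TPM, higher by 0.69 (limma adjusted p 0.00968). H2-Ob, a regulator of MHC class II loading, was at 9.78 and 15.9 TPM against 3.46 and 4.84 TPM, higher by 1.40 (0.0230). Cd74, the invariant chain, was at 888 and 789.7 TPM against 654 and 607 TPM, higher by 0.41 (0.0288). Their list, MHC class II presentation, was 3 of 12 higher and 2 lower (2 to 3 and 0 to 1 with a library left out), with a median of 0.08. H2-Aa, a class II chain, was lower by 0.28 (0.0915), so the list did not rise as a whole. Tnfaip2, H2-Ob and Cd74 each had groups that did not overlap. Itm2b, a membrane protein, was at 2758 and 2750.3 TPM against 2369.7 and 2257 TPM, higher by 0.25 (0.0306). Tpt1, a translation-linked protein, was at 5005 and 5138 TPM against 4196 and 4372 TPM, higher by 0.24 (0.0417), and its adjusted p was 0.233 without high-collagen library 2.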
